A study of Homo sapiens with 18 samples.

Results

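The EGF family genes of DLD1 cells were examined in poly(A) RNA: the ligands AREG, EREG, TGFA, BTC and HBEGF, the receptors EGFR, ERBB2 and ERBB3, and the receptor inhibitors ERRFI1 and LRIG1. The 10 genes were chosen by symbol, as ligands and receptors through which colorectal cells can signal to themselves. They come from 47021 genes in the deposited count table and were chosen with earlier results of these data known. All 10 were among the 14732 genes that passed the filter on low counts. DLD1 is an established human colorectal adenocarcinoma line. All cells had received lentivirus with a CRISPR guide, had been selected with 10 µg/ml puromycin into stable lines and were grown in DMEM with 5% fetal bovine serum. The groups were guide sgZ1 and guide sgZ3, both labelled with the genotype ZNF692 KO, and the control guide sgC, labelled WT, with 3 poly(A) libraries each. ZNF692 encodes a zinc finger protein, and the study set its knockout against the control. The labels do not say whether a line was a clone or a pool, or whether the replicates were separate cultures, so the tests see no more than library-to-library spread, which may be technical.

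EGF family ligands are made as membrane-anchored precursors, and metalloproteases of the ADAM family cut them free. The shed ligand binds a receptor on the same or a neighbouring cell, the receptors pair and phosphorylate each other, and adaptor proteins pass the signal on to RAS, ERK and PI3 kinase. AREG, EREG and TGFA are produced by intestinal epithelium and by many colorectal tumours, where EGFR is a target of therapeutic antibodies. The pathway restrains itself: ERRFI1 (MIG6) is a feedback inhibitor that binds the kinase domain of the activated receptor, and LRIG1 is a membrane protein that promotes loss of the receptor from the cell.

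EREG, AREG and BTC are neighbours on the long arm of chromosome 4. In GENCODE 29 on GRCh38, EREG lies at chr4:74365143-74388751 on the plus strand, AREG 56.4 kb further on at chr4:74445134-74455009 on the plus strand, and BTC a further 289.7 kb on at chr4:74744759-74794686 on the minus strand. The promoters of these 3 ligand genes, of which EREG and BTC changed and AREG passed no test, and of ERRFI1, which differed most between the ZNF692 guides among the 10 genes, are shown here from RefSeq (GRCh38.p14). Each window holds the 250 bases before the annotated transcription start, on the gene's strand, and capitals mark matches on either strand to the CRE (TGACGTCA), the TATA box (TATAAA), the CCAAT box, the GC box (GGGCGG) or the AP-1 site (TGANTCA).
EREG, chr4:74364895-74365144, plus strand: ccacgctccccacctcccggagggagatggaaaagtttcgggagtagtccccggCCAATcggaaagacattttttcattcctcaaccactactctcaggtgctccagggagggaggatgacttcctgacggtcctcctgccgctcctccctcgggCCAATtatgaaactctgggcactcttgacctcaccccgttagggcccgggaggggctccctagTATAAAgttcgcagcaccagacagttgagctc
AREG, chr4:74444886-74445135, plus strand: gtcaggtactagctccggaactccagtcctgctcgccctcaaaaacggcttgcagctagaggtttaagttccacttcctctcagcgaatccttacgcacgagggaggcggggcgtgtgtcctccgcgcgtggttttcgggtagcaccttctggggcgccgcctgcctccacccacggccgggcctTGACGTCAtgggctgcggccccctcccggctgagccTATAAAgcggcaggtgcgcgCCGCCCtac
BTC, chr4:74794524-74794773, minus strand: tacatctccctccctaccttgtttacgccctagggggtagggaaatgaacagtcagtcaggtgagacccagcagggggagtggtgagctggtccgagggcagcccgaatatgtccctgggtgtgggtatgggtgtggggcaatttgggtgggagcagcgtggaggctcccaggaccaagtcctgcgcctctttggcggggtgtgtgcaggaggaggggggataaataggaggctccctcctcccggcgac
ERRFI1, chr1:8026310-8026559, minus strand: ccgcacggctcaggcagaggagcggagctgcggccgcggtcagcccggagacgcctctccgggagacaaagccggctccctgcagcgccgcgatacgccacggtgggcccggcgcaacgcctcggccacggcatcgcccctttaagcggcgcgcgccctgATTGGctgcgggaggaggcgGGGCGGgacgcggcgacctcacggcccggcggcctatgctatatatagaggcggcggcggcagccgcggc

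The AREG window held a CRE whose first base lay 65 bases before the start and a TATA box at 29 bases, with a GC box on the opposite strand at 9 bases. The EREG window held a TATA box at 32 bases and 2 CCAAT boxes at 196 and 95 bases. The ERRFI1 window held a CCAAT box on the opposite strand at 90 bases and a GC box at 70 bases, and the BTC window matched none of the 5 motifs. Of 35116 RefSeq promoter windows of this length, 1.65% held the CRE, 10.7% the TATA box, 32% CCAAT, 42.6% the GC box and 6.57% the AP-1 site. A match describes the letters of the window and no binding was measured. The RefSeq table held a window for 9 of the 10 genes.

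The libraries held 16044224 to 24535642 counts each. ZNF692 mRNA was at 10.3 ± 1.01 CPM (counts scaled to the size of the library) in sgZ1, 7.43 ± 0.988 CPM in sgZ3 and 6.51 ± 0.446 CPM in sgC (SD, n = 3 each). Against sgC it was higher in sgZ1 (log2 0.66, edgeR adjusted p = 0.0048) and did not pass in sgZ3 (0.19, adjusted p = 0.32). Its level was thus not lower in either group labelled KO and does not check the labels. Some libraries stood apart. MSH6, a mismatch repair gene, stood at 67.3 to 74.8 CPM in sgZ1, 4.4 to 8.53 CPM in sgZ3 and 6.53 to 9.48 CPM in sgC. DKK1 stood at 290 to 381 CPM in sgZ1, 0.744 to 8.27 CPM in sgZ3 and 0.268 to 0.682 CPM in sgC. Some transcripts of mesenchymal cells were higher in sgZ1 replicate 2 and sgZ3 replicate 3, where the summed level of 12 markers was 116 and 119 CPM against 10.3 to 15.4 CPM in the other libraries, VIM was at 22.9 and 21.2 CPM against at most 1.22 CPM, and SPARC at 64.3 and 66.8 CPM against at most 5.91 CPM. SPARC and VIM made up most of these sums. The highest library of sgZ1, sgZ3 and sgC was at 12.2, 15.2 and 0.633 CPM for COL1A1 and at 9.87, 8.63 and 4.93 CPM for FN1. For PDGFRB it was at 2.99, 3.6 and 1.45 CPM, for COL3A1 at 0.737, 0.66 and 0 CPM. For THY1 it was at 1.35, 1.17 and 1.02 CPM, for COL6A3 at 0.345, 0.152 and 0.195 CPM. COL1A2, LUM and DCN had at most 2 counts in any library, and ACTA2 was at 1.23 to 1.92 CPM in sgZ1, 0.812 to 2.13 CPM in sgZ3 and 1.46 to 1.98 CPM in sgC. Results that rest on this pair of libraries are given with and without it. The part of whatever sets the sgZ1 libraries apart in MSH6 and DKK1 was not tested. The balance of long and short genes differed as well, and its values are given beside the receptors. So did that of GC-rich and GC-poor genes: the median of the GC-rich minus that of the GC-poor genes was -0.02, 0.01 and 0.29 in sgZ1, 0.09, 0.20 and -0.08 in sgZ3 and -0.19, -0.15 and -0.21 in sgC (log2, as deviations from the mean of the 9 libraries), lowest in all 3 sgC libraries. Markers of colorectal epithelium summed to 9030 to 9920 CPM in sgZ1, 11100 to 12200 CPM in sgZ3 and 9300 to 10400 CPM in sgC, while leukocyte markers summed to at most 6.14 CPM and endothelial markers to at most 3.88 CPM, with EMCN at 0 in all 9 libraries. KRT8, KRT18 and KRT19 made up most of the epithelial sums, and CDX1 had at most 16 counts. Lower in sgZ1 than in sgC (adjusted p under 0.05, edgeR) were 5 of 11 tested: EPCAM (log2 -0.26), KRT20 (-0.39), CDX2 (-0.28), LGALS4 (-1.39) and CLDN7 (-0.38). None was higher. In sgZ3 EPCAM (0.36), KRT8 (0.30) and KRT18 (0.31) were higher and none was lower. Over all genes 10.3% were lower in sgZ1 and 19.2% higher in sgZ3.

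Across the 10 genes, the ligands EREG, TGFA and BTC and the receptor ERBB3 fell with each ZNF692 guide relative to sgC, AREG and HBEGF passed no test, and the inhibitors ERRFI1 and LRIG1 rose with sgZ1 and did not pass with sgZ3. A gene is called changed at an adjusted p under 0.05 (edgeR, quasi-likelihood; Benjamini-Hochberg over all 14732 genes), and every adjusted p below is from that test unless another tool is named. Since the 10 genes were chosen with earlier results of these data known, the shares of all genes are given for scale and test no excess. In sgZ1 against sgC, 6 of 10 genes passed, 2 higher and 4 lower, where 25.8% of all genes passed, 15.5% higher and 10.3% lower. In sgZ3 against sgC, 5 of 10 passed, all lower, where 36.3% of all genes passed, 19.2% higher and 17.1% lower. The libraries of the 2 groups did not overlap for 7 of the 10 genes in sgZ1 against sgC, where the same held for 44.3% of all genes, and for 6 in sgZ3 against sgC, where it held for 52.3%. Without the pair of libraries with mesenchymal transcripts, 6 of the 10 genes passed in sgZ1 and 7 in sgZ3. The numbers called over all genes were larger there as well, at 5894 and 8246 in place of 3807 and 5355. The shares of all genes given above therefore do not apply to that fit. The median log2 fold change of the 10 genes was -0.22 for sgZ1 and -0.35 for sgZ3, against 0.01 and -0.02 over all genes. The guides share the sgC libraries, so a likeness of their values is in part built in. In bulk RNA, fewer cells that express a gene and less RNA per cell cannot be told apart.

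**Figure D1:**
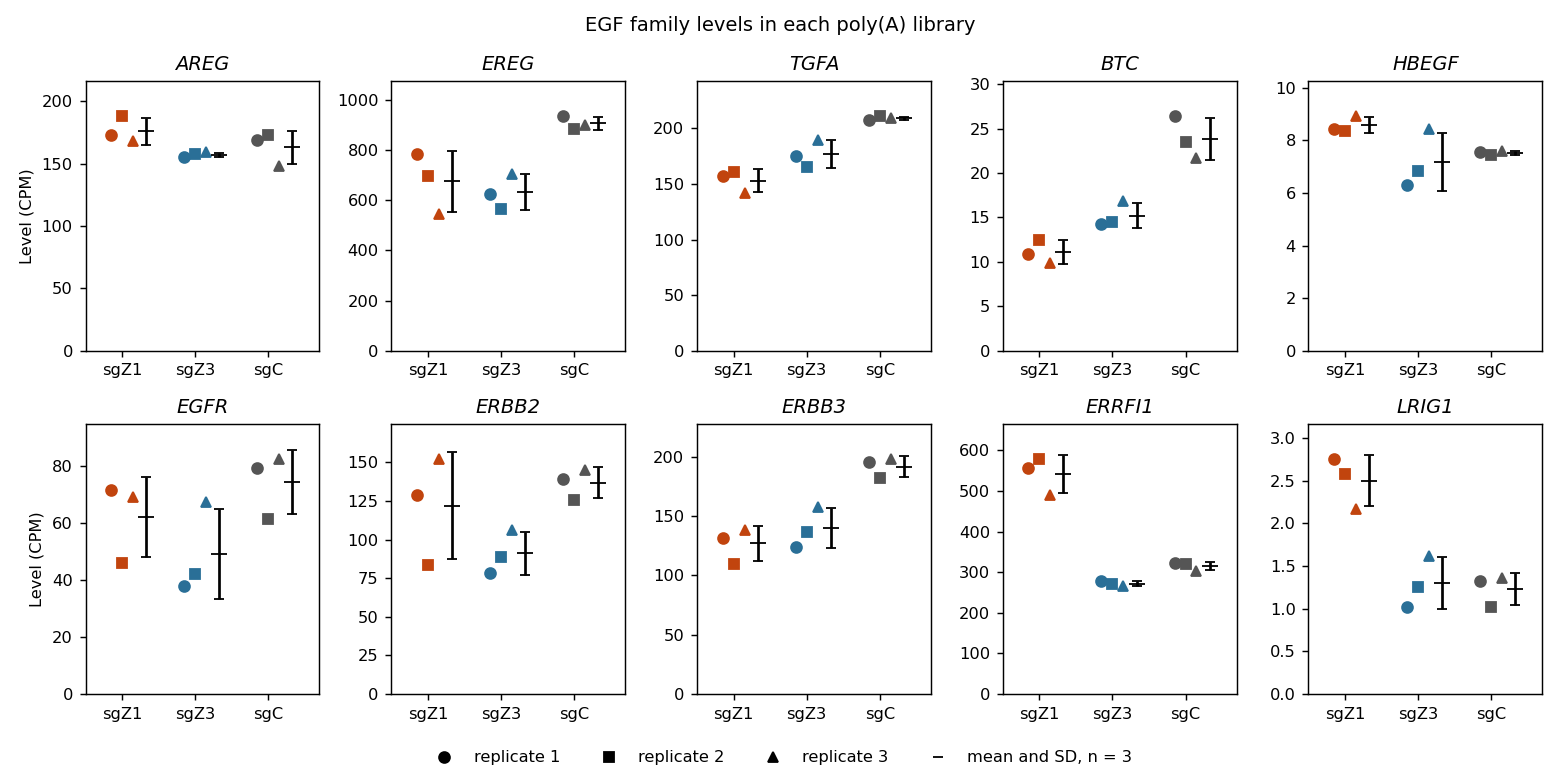
Level of each EGF family gene in every poly(A) library (CPM, linear axes from 0), with the mean and SD of the 3 libraries of each guide. EREG, TGFA, BTC and ERBB3 lie below every sgC library in all 6 libraries of the ZNF692 guides, and ERRFI1 and LRIG1 lie above sgC in sgZ1.

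**Figure D2:**
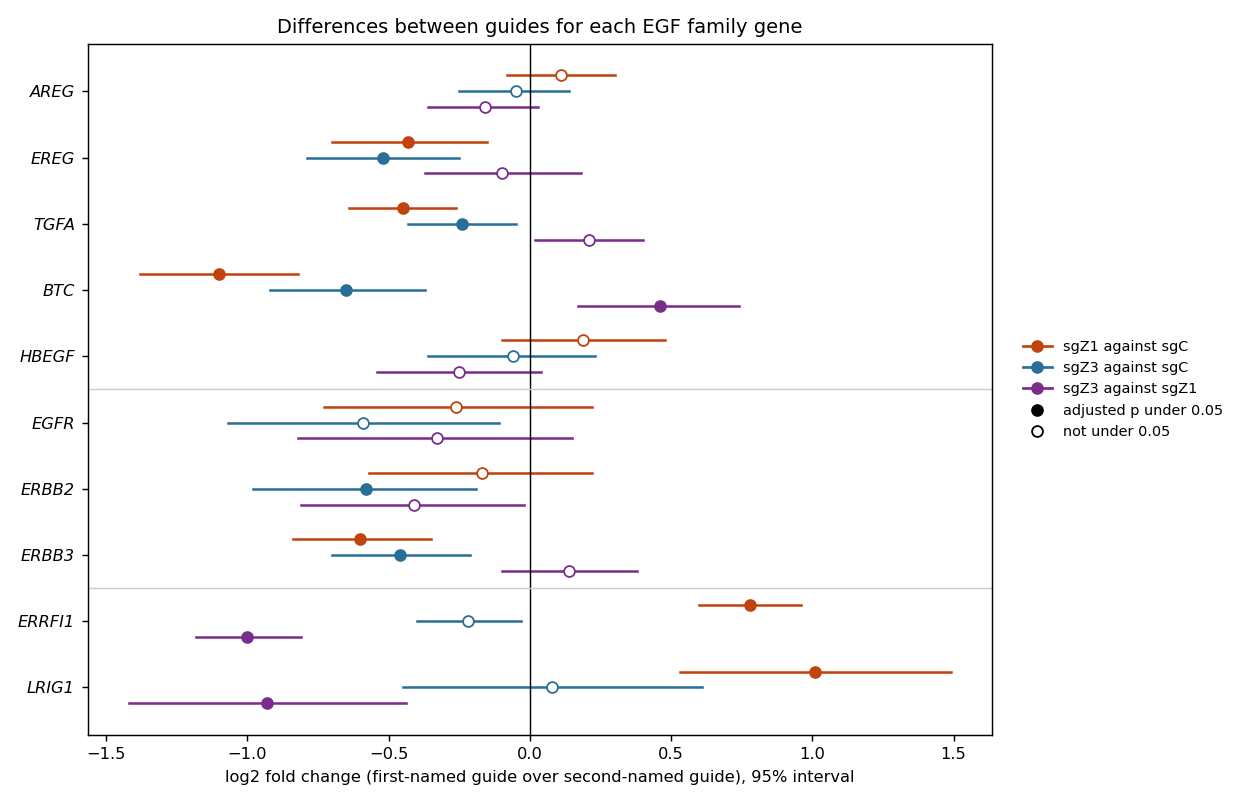
Log2 fold change of each gene with its 95% interval for sgZ1 against sgC, sgZ3 against sgC and sgZ3 against sgZ1, with filled points for an adjusted p under 0.05. BTC, LRIG1 and ERRFI1 have filled points in the comparison of sgZ3 with sgZ1, at 0.46, -0.93 and -1.00.

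Among the ligands, BTC (betacellulin, a ligand of EGFR and ERBB4) changed most against sgC. It was at 10.9, 12.5 and 9.85 CPM in sgZ1, at 14.3, 14.5 and 16.8 CPM in sgZ3 and at 26.4, 23.5 and 21.7 CPM in sgC. The 3 groups did not overlap, with sgZ1 lowest and sgC highest. BTC fell by 1.10 on the log2 scale in sgZ1 (SE 0.13, adjusted p = 6.4e-05) and by 0.65 in sgZ3 (SE 0.13, adjusted p = 0.0029). Expressed as a share of the sgC level, BTC fell by 53.4% in sgZ1 and fell by 36.1% in sgZ3. It was the gene of the 10 whose change in sgZ1 ranked lowest among all tested genes, at the 0.808th percentile. Both calls held under each of the 19 alternative settings or left-out libraries run. BTC was 0.46 higher in sgZ3 than in sgZ1 on the log2 scale (SE 0.13, adjusted p = 0.021). That call did not survive leaving out sgZ1 replicate 1 (0.44, adjusted p = 0.071) or sgZ1 replicate 3 (0.38, adjusted p = 0.077), or taking library totals as the scale (0.35, adjusted p = 0.065), and its adjusted p ran from 0.0071 to 0.077 over the alternatives.

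EREG (epiregulin, a ligand of EGFR and ERBB4) had the highest level per length of the 10 genes in sgC. It was at 783, 697 and 545 CPM in sgZ1, at 625, 564 and 706 CPM in sgZ3 and at 935, 883 and 901 CPM in sgC. All 6 libraries of the ZNF692 guides lay below the lowest sgC library, and the libraries of sgZ1 and sgZ3 overlapped. EREG fell by 0.43 in sgZ1 (SE 0.12, adjusted p = 0.026) and by 0.52 in sgZ3 (SE 0.13, adjusted p = 0.0082) on the log2 scale. For sgZ1 the call was lost without sgZ1 replicate 3 (-0.29, adjusted p = 0.087) and without sgC replicate 1, 2 or 3 (adjusted p = 0.099, 0.056 and 0.068), within a range of 0.0014 to 0.099 over the alternatives. With offsets for gene length and GC content, an alternative added after the data were seen, the change was -0.22 in sgZ1 (adjusted p = 0.035) and -0.30 in sgZ3 (adjusted p = 0.0069). The longest annotated transcript of EREG has a GC content of 36.1%, and the GC balance of the libraries, given above, differed between sgC and the ZNF692 guides. The 2 guides did not differ detectably in EREG (-0.10 for sgZ3 against sgZ1, 95% interval -0.37 to 0.18, adjusted p = 0.59).

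TGFA (transforming growth factor alpha, an EGFR ligand on chromosome 2) was at 157, 161 and 142 CPM in sgZ1, at 175, 165 and 190 CPM in sgZ3 and at 208, 211 and 209 CPM in sgC. The sgC libraries lay close together and above all the others, and sgZ1 and sgZ3 did not overlap. TGFA fell by 0.45 in sgZ1 (SE 0.087, adjusted p = 0.0027) and by 0.24 in sgZ3 (SE 0.087, adjusted p = 0.045) on the log2 scale. The sgZ3 call was close to the threshold and passed in 10 of 19 alternatives (adjusted p from 0.00078 to 0.18). Among the alternatives that ended it were leaving out any one of the sgC libraries (adjusted p = 0.11, 0.11 and 0.12), sgZ1 replicate 1 (0.057), sgZ3 replicate 1 (0.13) or sgZ3 replicate 2 (0.18), another scaling (RLE factors, 0.056) and no filter on low counts (0.11). The difference of sgZ3 from sgZ1 was 0.21 (95% interval 0.02 to 0.40, adjusted p = 0.094).

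AREG (amphiregulin), which lies between EREG and BTC, passed no test. Its level was 173, 188 and 168 CPM in sgZ1, 155, 158 and 159 CPM in sgZ3 and 169, 173 and 148 CPM in sgC, so each ZNF692 guide overlapped sgC. The log2 difference was 0.11 for sgZ1 (95% interval -0.08 to 0.30, adjusted p = 0.4) and -0.05 for sgZ3 (95% interval -0.25 to 0.14, adjusted p = 0.67). With offsets for gene length and GC content, AREG was lower in sgZ3 than in sgC (-0.23, adjusted p = 0.036, range over the alternatives 0.036 to 0.94). The sgZ3 libraries lay below all sgZ1 libraries, and the difference of sgZ3 from sgZ1, -0.16 (95% interval -0.36 to 0.03, adjusted p = 0.19), passed with these offsets (-0.39, adjusted p = 0.0028) and with library totals as the scale (-0.27, adjusted p = 0.03), within a range of 0.0028 to 0.37.

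HBEGF (heparin-binding EGF-like growth factor) had the lowest level per length of these 5 ligands, at 2.84 ± 0.102 CPM per kilobase in sgZ1, 2.38 ± 0.367 in sgZ3 and 2.49 ± 0.0249 in sgC (SD, n = 3 each). It was at 8.43, 8.35 and 8.92 CPM in sgZ1, at 6.29, 6.83 and 8.42 CPM in sgZ3 and at 7.55, 7.44 and 7.59 CPM in sgC. The sgZ1 libraries lay above those of sgC and the sgZ3 libraries spread around them. Neither difference passed, at 0.19 for sgZ1 (95% interval -0.10 to 0.48, adjusted p = 0.34) and -0.06 for sgZ3 (95% interval -0.36 to 0.23, adjusted p = 0.74). In sgZ3 against sgZ1 HBEGF was at -0.25 (adjusted p = 0.18), and it passed without sgZ3 replicate 3 (-0.38, adjusted p = 0.036) or without the pair with mesenchymal transcripts (-0.43, adjusted p = 0.015), within a range of 0.015 to 0.49.

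Levels of different ligands can be set side by side only per length, here CPM per kilobase of merged exons. EREG stood at 118 ± 21.1 in sgZ1, 110 ± 12.5 in sgZ3 and 159 ± 4.65 in sgC, and AREG stood at 107 ± 6.49 in sgZ1, 95.5 ± 1.06 in sgZ3 and 99.1 ± 8.14 in sgC (SD, n = 3 each). TGFA stood at 30.8 ± 2.03 in sgZ1, 35.6 ± 2.49 in sgZ3 and 42.2 ± 0.257 in sgC. EREG and AREG libraries overlapped in sgZ1 (95.3 to 137 for EREG, 102 to 114 for AREG) but not in sgZ3 or sgC. The 5 ligands together reached 263 ± 26.6 in sgZ1, 249 ± 16 in sgZ3 and 311 ± 10.3 in sgC. Within that sum, AREG made up 40.9% ± 3.23 in sgZ1, 38.4% ± 2.35 in sgZ3 and 31.9% ± 1.81 in sgC, while EREG made up 44.7% ± 3.94 in sgZ1, 44.2% ± 2.21 in sgZ3 and 51% ± 1.58 in sgC. The AREG share was above every sgC library, and the EREG share below every sgC library, in all 6 libraries of the ZNF692 guides. BTC was 1.5% ± 0.114 of the ligand sum in sgZ1, 2.16% ± 0.0907 in sgZ3 and 2.72% ± 0.182 in sgC. These shares do not depend on the scaling between libraries. They carry no test and were not adjusted for the GC and length balance of each library. The GC content of EREG is 36.1% and that of AREG 45.3%. With offsets for gene length and GC content, EREG in sgZ3 was at -0.30 in place of -0.52, and AREG at -0.23 in place of -0.05. In sgZ1 EREG was at -0.22 with them in place of -0.43. The AREG value with the offsets in sgZ1 lay within 0.04 to 0.16, the range over all alternatives, in place of 0.11.

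**Figure D3:**
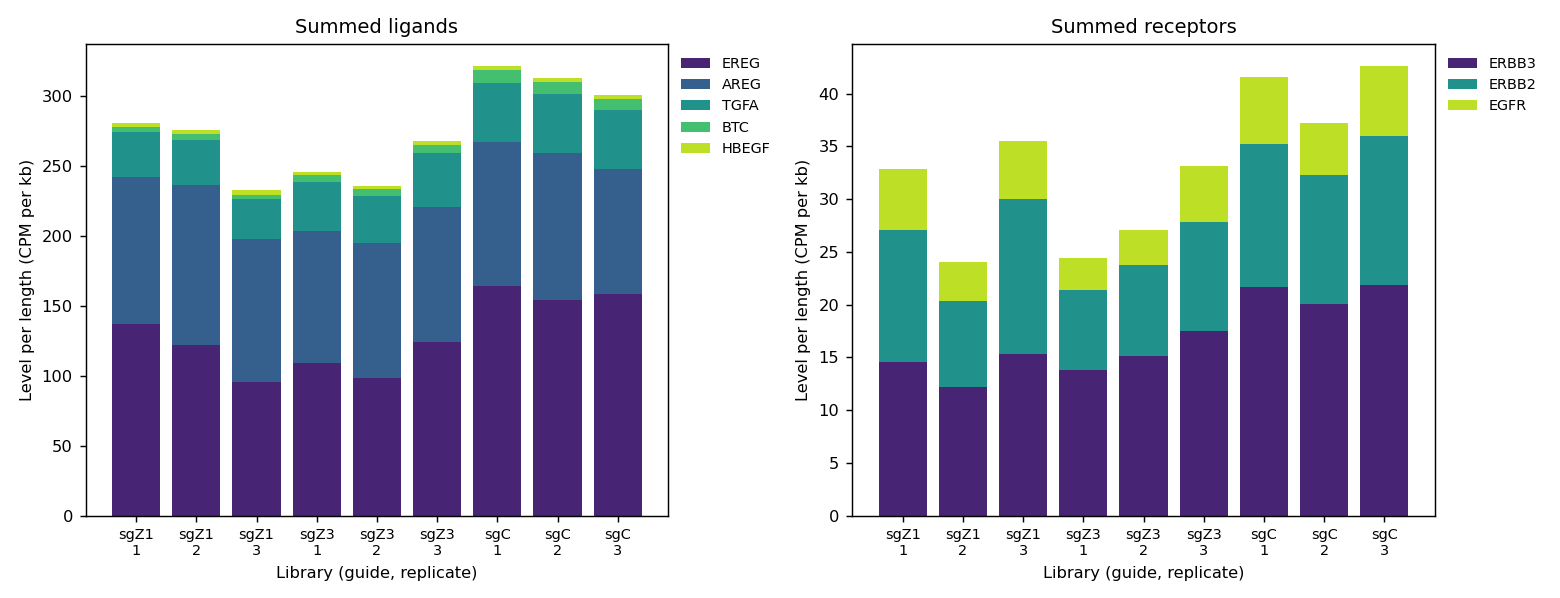
Summed level of the 5 ligands (left) and of the 3 receptors (right) in each library, in CPM per kilobase of merged exons, stacked by gene with both axes from 0. The ligand sum is 232 to 280 in sgZ1, 235 to 267 in sgZ3 and 300 to 320 in sgC, and EREG and AREG make up most of it in each library.

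Among the receptors, ERBB3, which has little kinase activity of its own and signals through its partners, fell with both guides. It was at 132, 110 and 138 CPM in sgZ1, at 124, 137 and 158 CPM in sgZ3 and at 196, 182 and 198 CPM in sgC. All 6 libraries of the ZNF692 guides were below the lowest sgC library, and those of sgZ1 and sgZ3 overlapped. The log2 fold change was -0.60 in sgZ1 (SE 0.11, adjusted p = 0.0023) and -0.46 in sgZ3 (SE 0.11, adjusted p = 0.0091), and both calls held in each of the 19 alternatives. Without the pair of libraries with mesenchymal transcripts ERBB3 was at -0.52 in sgZ1 (adjusted p = 1.5e-05, range over the alternatives 5.7e-06 to 0.017) and at -0.60 in sgZ3 (adjusted p = 1.0e-06, range 1.0e-06 to 0.047).

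ERBB2 (HER2), the receptor with no known ligand and the preferred partner of the other family members, was at 129, 83.8 and 152 CPM in sgZ1, at 78.6, 88.9 and 106 CPM in sgZ3 and at 139, 126 and 145 CPM in sgC. The sgZ3 libraries lay below all sgC libraries, whereas in sgZ1 one library was below, one within and one above the sgC range. ERBB2 fell by 0.58 on the log2 scale in sgZ3 (SE 0.18, adjusted p = 0.026). The sgZ1 value was -0.17 (95% interval -0.57 to 0.22, adjusted p = 0.52). The sgZ3 call was lost without sgZ3 replicate 1 (-0.49, adjusted p = 0.11), sgZ3 replicate 2 (-0.57, adjusted p = 0.091), sgC replicate 1 (-0.57, adjusted p = 0.083) or sgC replicate 3 (-0.54, adjusted p = 0.096), within a range of 1.9e-07 to 0.11. The low sgZ1 value, 83.8 CPM, belongs to replicate 2, one of the pair with mesenchymal transcripts. Without that pair ERBB2 was at 0.03 for sgZ1 (adjusted p = 0.85, range 0.15 to 0.91) and at -0.75 for sgZ3 (adjusted p = 1.9e-07), and the difference of sgZ3 from sgZ1 was -0.78 (adjusted p = 3.4e-07, range 3.4e-07 to 0.41) in place of -0.41 with all libraries (adjusted p = 0.11).

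EGFR, the receptor of all 5 ligands measured here, passed with neither guide. It was at 71.5, 46.1 and 69 CPM in sgZ1, at 38, 42.2 and 67.2 CPM in sgZ3 and at 79.2, 61.4 and 82.3 CPM in sgC. In sgZ3 replicates 1 and 2 were below sgC and replicate 3 lay within the sgC range, while in sgZ1 replicate 2 was below it. The log2 fold change was -0.26 in sgZ1 (95% interval -0.73 to 0.22, adjusted p = 0.42) and -0.59 in sgZ3 (95% interval -1.07 to -0.11, adjusted p = 0.053). The sgZ3 value passed in 12 of 19 alternatives (adjusted p from 7.8e-08 to 0.19), among them DESeq2 (-0.58, adjusted p = 0.022). Without sgZ3 replicate 3, one of the pair with mesenchymal transcripts, it was -0.89 (adjusted p = 0.0018), and without the pair -0.93 (adjusted p = 7.8e-08).

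EGFR, ERBB2 and ERBB3 have long transcripts, with merged exons of 12.5, 10.3 and 9.04 kb, at the 94.8th, 90th and 85.5th percentiles of length among tested genes. Libraries differed in the level of long genes: the median of the longest tercile of genes (over 6210 bp) minus that of the shortest (under 3417 bp) was 0.18, -0.13 and 0.05 in sgZ1, -0.33, -0.33 and 0.06 in sgZ3 and 0.16, 0.08 and 0.28 in sgC, on the log2 scale as deviations from the mean of the 9 libraries. The 3 libraries with the lowest values were sgZ3 replicates 1 and 2 and sgZ1 replicate 2, and these had the 3 lowest levels of EGFR. They also had the 3 lowest levels of ERBB2 and were among the 4 lowest for ERBB3. With offsets for gene length and GC content the change in sgZ3 was -0.44 for EGFR (adjusted p = 0.049, range 7.8e-08 to 0.19), -0.47 for ERBB2 (adjusted p = 0.013, range 1.9e-07 to 0.11) and -0.38 for ERBB3 (adjusted p = 0.0022), against -0.59, -0.58 and -0.46 without them. In sgZ1 ERBB3 was at -0.59 (adjusted p = 0.00011) with the offsets and at -0.60 without them.

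**Figure D4:**
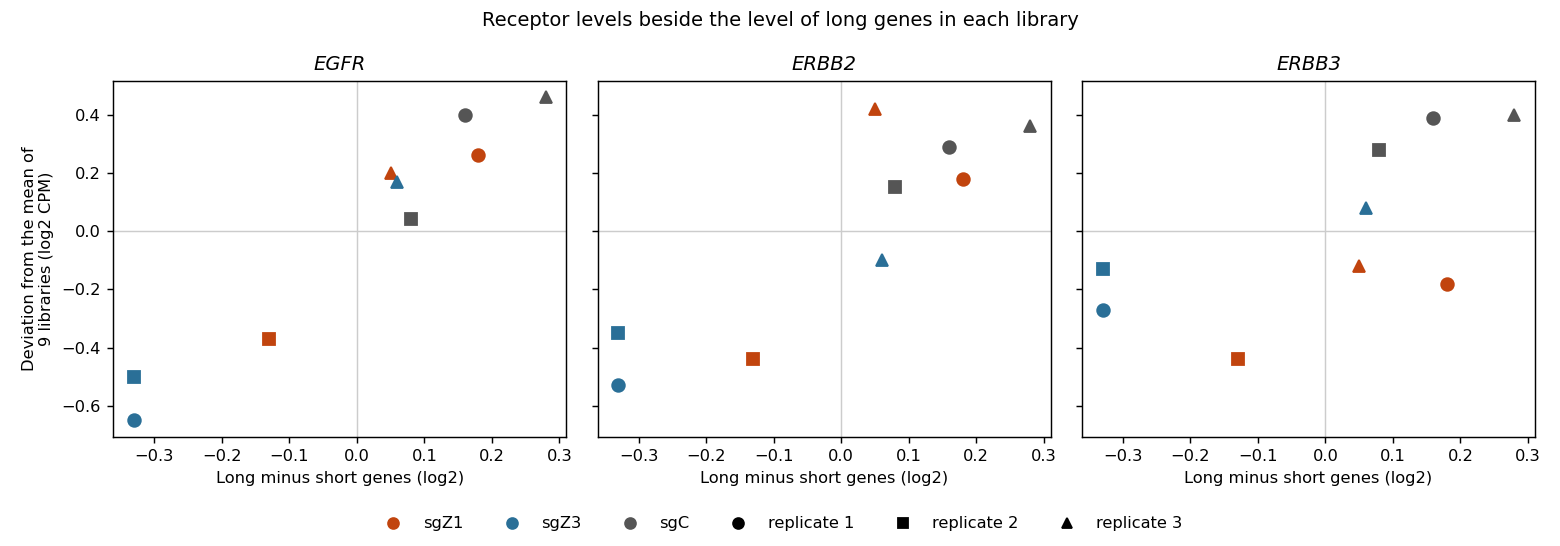
Level of EGFR, ERBB2 and ERBB3 in each library (deviation from the mean of the 9 libraries, log2 CPM) against the level of long minus short genes in the same library (log2). For EGFR the 3 libraries at -0.13 and -0.33 on the horizontal axis are the 3 lowest, at -0.37, -0.65 and -0.50, while for ERBB3 the sgZ1 libraries lie below sgC at values of the horizontal axis that overlap.

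Per length, ERBB3 was the highest of the 3 receptors in each library: it stood at 14 ± 1.62 CPM per kilobase in sgZ1, 15.5 ± 1.87 in sgZ3 and 21.2 ± 0.981 in sgC (SD, n = 3 each). ERBB2 stood at 11.8 ± 3.36 in sgZ1, 8.83 ± 1.34 in sgZ3 and 13.3 ± 0.956 in sgC, and EGFR at 4.97 ± 1.12 in sgZ1, 3.93 ± 1.26 in sgZ3 and 5.93 ± 0.903 in sgC. Of the receptor sum, ERBB2 made up 37.8% ± 3.83 in sgZ1, 31.3% ± 0.382 in sgZ3 and 32.8% ± 0.336 in sgC. The sum was 30.8 ± 6.02 in sgZ1, 28.2 ± 4.45 in sgZ3 and 40.4 ± 2.82 in sgC, with every library of the ZNF692 guides below the lowest sgC library. The counting strand is not given in the sources used here. ERBB2 overlaps PGAP3 and MIEN1 on the opposite strand, which held 761 to 1203 and 904 to 1776 counts per library. These overlaps are of whole gene spans, and how much of them is exonic was not determined. Whether reads in these overlaps were counted for ERBB2, for the other gene or for neither is not known. The antisense gene EGFR-AS1 held 0 to 2 counts.

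The inhibitors had the largest differences between the ZNF692 guides among the 10 genes. ERRFI1 was at 558, 578 and 490 CPM in sgZ1, at 279, 270 and 266 CPM in sgZ3 and at 322, 321 and 304 CPM in sgC. All sgZ1 libraries lay above sgC, and all sgZ3 libraries lay below it. ERRFI1 rose by 0.78 in sgZ1 (SE 0.085, adjusted p = 3.8e-05) and was at -0.22 in sgZ3 (95% interval -0.40 to -0.03, adjusted p = 0.064) on the log2 scale. The sgZ3 value passed in 8 of 19 alternatives (adjusted p from 0.0047 to 0.17). In sgZ3 against sgZ1 ERRFI1 was 1.00 lower (SE 0.085, adjusted p = 5.4e-06), a call that held in each of the 19 alternatives. Averaged over both guides ERRFI1 was at 0.28 (SE 0.074, adjusted p = 0.013), from values on either side of sgC. This call ended when sgC replicate 1 (adjusted p = 0.058) or sgC replicate 3 (0.082) was left out and with library totals as the scale (0.18, adjusted p = 0.058), within a range of 0.0012 to 0.082.

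LRIG1 was barely detected, with 44 to 63 counts per library in sgZ1, 15 to 32 in sgZ3 and 19 to 32 in sgC. Its level was 2.75, 2.58 and 2.17 CPM in sgZ1, 1.02, 1.25 and 1.62 CPM in sgZ3 and 1.32, 1.02 and 1.36 CPM in sgC. The sgZ1 libraries were above all the others, and sgZ3 overlapped sgC. LRIG1 rose by 1.01 in sgZ1 (SE 0.22, adjusted p = 0.0058), stood at 0.08 in sgZ3 (95% interval -0.45 to 0.61, adjusted p = 0.82) and was 0.93 lower in sgZ3 than in sgZ1 (SE 0.23, adjusted p = 0.0092). LRIG1 overlaps SLC25A26 on the opposite strand, which held 574 to 1048 counts per library, many times its own. This overlap is of whole gene spans, and how much of it is exonic was not determined. SLC25A26 reads counted for LRIG1, if any, cannot be told apart from LRIG1 reads.

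Between the guides, 3 of the 10 genes differed in sgZ3 against sgZ1, BTC higher and ERRFI1 and LRIG1 lower, where 28.6% of all genes differed, 12.8% higher and 15.8% lower. The libraries of the ZNF692 guides did not overlap for 5 of the 10 genes and for 35.5% of all genes. Averaged over the ZNF692 guides, 5 of 10 passed, where 33.2% of all genes did: EREG, TGFA, BTC and ERBB3 were lower, at -0.47, -0.35, -0.87 and -0.53, and ERRFI1 was higher. EGFR at -0.43 (adjusted p = 0.097), ERBB2 at -0.38 (adjusted p = 0.078) and LRIG1 at 0.55 (adjusted p = 0.057) did not pass, although EGFR passed in 4 and ERBB2 in 8 of 18 alternatives. Every library of both ZNF692 guides lay on one side of every sgC library for 4 of the 10 genes and for 23.4% of all genes.

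The remaining genes of the family were at or near 0. The ligands EPGN (epigen), NRG1, NRG3 and NRG4 had at most 4 counts in any library, with NRG3 at 0 in all of them, and the receptor ERBB4 had at most 7. These 5 genes did not pass the filter on low counts. Of the tested pair, EGF had 4 to 15 counts per library and passed no test, at -0.43 in sgZ1 (adjusted p = 0.4) and -0.69 in sgZ3 (adjusted p = 0.17). NRG2 had 2 to 24 counts per library and was lower in sgZ3 than in sgZ1 (-1.58, SE 0.46, adjusted p = 0.022), with no call against sgC.

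The genes of ligand shedding were read in the same fit. This list and those that follow were also written with earlier results of these data known, so their counts test no excess over all genes. Of 10 tested sheddases, rhomboid-like proteins and their partners, none rose and 3 fell in sgZ1 (median log2 fold change -0.24), and 2 rose and none fell in sgZ3 (median -0.12), beside the medians of 0.01 and -0.02 over all genes. Over all genes 25.8% passed in sgZ1 and 36.3% in sgZ3, so the share in sgZ1 was near that of all genes. By direction, 15.5% of all genes rose and 10.3% fell in sgZ1, and 19.2% rose and 17.1% fell in sgZ3. ADAM10, which cuts BTC and EGF from the membrane in mouse cells, fell in sgZ1 (-0.40, adjusted p = 0.031) and was at -0.17 in sgZ3 (adjusted p = 0.29). ADAM17, the main sheddase of AREG, EREG, TGFA and HBEGF in mouse cells and named here after its values were seen, passed with neither guide (-0.27 in sgZ1, adjusted p = 0.14, and -0.25 in sgZ3, adjusted p = 0.15). RHBDL2, a rhomboid protease, fell in sgZ1 (-0.64, adjusted p = 0.036). FRMD8, a partner that stabilises the complex of ADAM17 with iRhom, rose in sgZ3 (0.58, adjusted p = 0.0017), as did ADAM15 (0.38, adjusted p = 0.0052).

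Among 26 tested adaptors and effectors, 5 rose and 4 fell in sgZ1, and 3 rose and 10 fell in sgZ3, with medians of -0.09 and -0.12. Over all genes 15.5% rose and 10.3% fell in sgZ1, and 19.2% rose and 17.1% fell in sgZ3. HRAS rose with both guides, by 0.55 in sgZ1 (adjusted p = 0.013) and 1.07 in sgZ3 (adjusted p = 0.0004). VAV2, a guanine nucleotide exchange factor, rose in sgZ1 (1.33, adjusted p = 0.0003), as did the adaptor SHC1 (0.52, adjusted p = 0.0006), and both were lower in sgZ3 than in sgZ1 (-1.13 and -0.42). SOS2, an exchange factor for RAS, fell in sgZ3 (-0.99, adjusted p = 0.00085).

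Of 24 tested genes of receptor degradation, endocytosis and inhibition, 2 rose and 6 fell in sgZ1 and none rose and 7 fell in sgZ3, with medians of -0.14 and -0.20. The shares passing in either direction were near those of all genes, 25.8% in sgZ1 and 36.3% in sgZ3. By direction, 15.5% of all genes rose and 10.3% fell in sgZ1, and 19.2% rose and 17.1% fell in sgZ3. CBLB, a ubiquitin ligase of the CBL family that marks activated receptors, fell in sgZ1 (-0.59, adjusted p = 0.014) and in sgZ3 (-0.75, adjusted p = 0.0038). LRIG2, a relative of LRIG1, fell in sgZ1 (-0.61, adjusted p = 0.0024) and was at -0.31 in sgZ3 (adjusted p = 0.052). HGS, a subunit of the sorting complex that directs ubiquitinated receptors to the lysosome, rose in sgZ1 (0.65, adjusted p = 0.0013), and STAM2, its partner, fell in sgZ3 (-0.55, adjusted p = 0.0083).

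A further list held genes that ERK signalling induces, many of which feed back on it. Of 13 tested, 8 rose and none fell in sgZ1 (median 0.45), 1 rose and 4 fell in sgZ3 (median -0.23), and 9 were lower and none higher in sgZ3 than in sgZ1 (median -0.87, against -0.01 over all genes). Over all genes 15.5% rose in sgZ1, 17.1% fell in sgZ3 and 15.8% were lower in sgZ3 than in sgZ1, and the share called in sgZ3 against sgC was near the 36.3% of all genes. DUSP4, a MAP kinase phosphatase, rose in sgZ1 (1.91, SE 0.093, adjusted p = 4.5e-08) and was at -0.23 in sgZ3 (adjusted p = 0.074). FOSL1, an AP-1 subunit, rose by 1.56 in sgZ1 (adjusted p = 5.6e-06) and by 0.54 in sgZ3 (adjusted p = 0.01). ETV5, a transcription factor of the ETS family, fell in sgZ3 (-0.99, adjusted p = 0.0014), as did SPRED1, an inhibitor of RAS activation (-0.66, adjusted p = 0.0014). Not called in sgZ1 were 5 of the 13. DUSP6 (-0.21, adjusted p = 0.13), SPRY2 (-0.19, adjusted p = 0.28) and SPRED1 (-0.31, adjusted p = 0.057) were below 0 there, and SPRED2 (0.08) and ETV5 (0.25) above it. In sgZ3 against sgZ1 DUSP6 and SPRY2 were at 0.14 and 0.25, with no call (adjusted p = 0.31 and 0.14). ERRFI1, itself an ERK-responsive inhibitor, was higher in sgZ1 than in sgC and lower in sgZ3 than in sgZ1. Phosphorylated ERK was not measured.

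**Figure D5:**
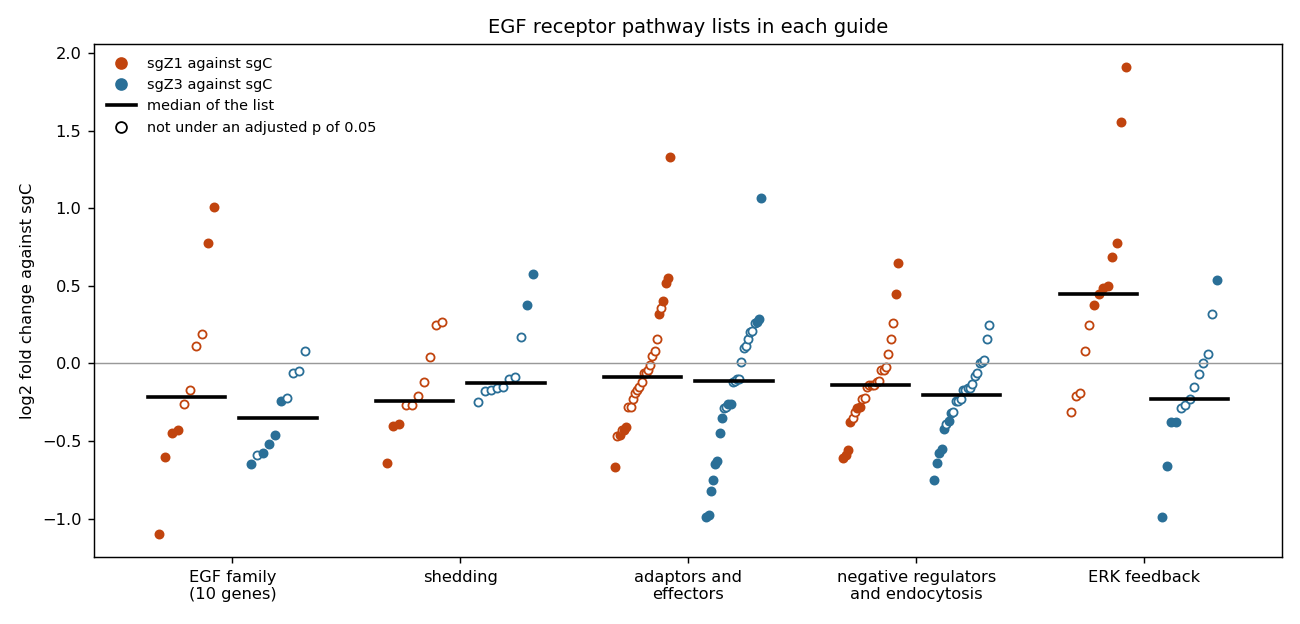
Log2 fold change against sgC of each tested gene of the EGF family and of 4 lists of its pathway, for sgZ1 and sgZ3, with filled points for an adjusted p under 0.05 and bars at the list medians. The ERK feedback genes have medians of 0.45 in sgZ1 and -0.23 in sgZ3, while those of the other 3 pathway lists lie between -0.24 and -0.09.

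The genes around the ligand and receptor loci were counted in the same fit. Of 10 tested genes around EREG, AREG and BTC on chromosome 4, none rose and 2 fell in sgZ1, and 4 rose and none fell in sgZ3. The shares in either direction were near the 25.8% and 36.3% of all genes called in these comparisons. By direction, 15.5% of all genes rose and 10.3% fell in sgZ1, and 19.2% rose and 17.1% fell in sgZ3. The chemokine genes CXCL1 and CXCL2 rose in sgZ3 (0.60, adjusted p = 0.002, and 0.78, adjusted p = 0.0018), the comparison in which EREG and BTC fell. In sgZ1 CXCL1 and CXCL2 were at -0.02 and -0.04, while the chemokine gene CXCL5 (-0.50, adjusted p = 0.032) and PARM1 (-0.46, adjusted p = 0.01) fell. Of 7 tested genes around ERBB2 on chromosome 17, 1 rose and none fell in sgZ1, and 3 rose and 2 fell in sgZ3, beside 25.8% of all genes called in sgZ1 and 36.3% in sgZ3. MIEN1, next to ERBB2, rose with both guides (0.44, adjusted p = 0.048, in sgZ1 and 0.68, adjusted p = 0.0056, in sgZ3), and PGAP3 rose in sgZ3 (0.44, adjusted p = 0.0064), where ERBB2 fell. PPP1R1B fell in sgZ3 (-1.89, SE 0.63, adjusted p = 0.035), with 1 to 22 counts per library. GRB7 fell in sgZ3 as ERBB2 did (-0.26, adjusted p = 0.047) and was at -0.04 in sgZ1 (adjusted p = 0.8).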

How the data were processed

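Poly(A) RNA was sequenced from 9 DLD1 libraries, 3 per guide, and grouped by sample title. The 9 ribosomal RNA libraries of the 18 in the series were not used. One sgC library was kept as poly(A) by title and molecule, although its description points to the other table. The authors deposited whole-number counts per gene, not normalized. Tools in the submitters' processing notes are HTSeq, DESeq2, STAR 2.5.2b and SAMtools 1.9, with the build GRCh38. Not given in the sources used here are the annotation release and the counting strand.

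In R 4.3.3, edgeR 4.0.16 fitted all 9 libraries (TMM factors, filterByExpr, robust quasi-likelihood, group as the only term), with Benjamini-Hochberg adjustment over 14732 genes and calls at an adjusted p under 0.05. Replicates had a common biological coefficient of variation of 12.7%. CPM values use TMM-scaled library sizes. Lengths and coordinates came from GENCODE 29, which matched 99.2% of tested genes. Alternatives were DESeq2 1.42.0, other scalings and filters, a fit of only the compared groups, a replicate block, left-out libraries and offsets for length and GC. The fit was tested on simulated data.

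The 10 genes and all lists were chosen with earlier results of these data known. Named beside the 10 genes are ZNF692, the rest of the EGF family, and from each list the 2 tested genes with the smallest adjusted p in each guide's comparison with sgC. VIM, SPARC and markers at 0 describe the libraries. ADAM17, GRB7, DUSP6, SPRY2, SPRED2, MSH6 and DKK1 were named after their values were seen. So were the cell type markers other than VIM, SPARC and EMCN.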

Additional observations from a re-analysis of the deposited data

Results flagged for a closer look

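The effects of the ZNF692 guides differed from each other for 3 of the 10 genes by edgeR's quasi-likelihood test of the difference itself, a share near the 28.6% of all genes that differed. BTC was lower than sgC with both guides and less so with sgZ3, so that sgZ3 stood 0.46 above sgZ1 on the log2 scale (adjusted p = 0.021, 3 of 3 sgZ3 libraries above all sgZ1 libraries). LRIG1 had a log2 difference of -0.93 for sgZ3 against sgZ1 (adjusted p = 0.0092, 3 of 3 libraries below), at 15 to 63 counts per library in these groups. ERRFI1 had a log2 difference of -1.00 for sgZ3 against sgZ1 (adjusted p = 5.4e-06, 3 of 3 libraries below). MSH6, which is no member of the family, was at 4.4 to 8.53 CPM in sgZ3 and 67.3 to 74.8 CPM in sgZ1. DKK1, likewise no member, was at 0.744 to 8.27 CPM in sgZ3 and 290 to 381 CPM in sgZ1. The part of MSH6 and DKK1 in these differences was not tested.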

How the results depend on the processing

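BTC and ERBB3 against sgC for each guide, EREG in sgZ3 and TGFA in sgZ1 against sgC, and ERRFI1 and LRIG1 in sgZ1 against sgC and in sgZ3 against sgZ1 kept their calls under every alternative in which they were fitted. HBEGF and LRIG1 could not be fitted at a mean of at least 10 CPM. The numbers of genes called in all were 3807 for sgZ1 against sgC, 5355 for sgZ3 against sgC, 4885 for the mean of both guides and 4209 for sgZ3 against sgZ1. Without the pair of libraries with mesenchymal transcripts they were 5894, 8246, 7409 and 7932, and leaving out 1 library at a time gave 2129 to 4855, 3080 to 6796, 2201 to 6337 and 2501 to 6153. At a mean of at least 10 CPM they were 2527 for sgZ1 against sgC and 2676 for sgZ3 against sgZ1. Of the 10 genes, sgZ3 against sgC called 5, 8 with the offsets (5805 of all genes) and 3 to 7 with 1 library left out. For sgZ3 against sgZ1 it was 3, 5 with the offsets (5307 of all genes) or no filter on low counts (4900), 6 without the pair, and 2 to 6 with 1 library left out. The share of called genes that were higher was 52.9% in sgZ3 against sgC, 41.5% with upper-quartile factors and 29.6% with library totals. It was 56%, 45.9% and 36.6% for the mean of both guides, and 44.7% and, with library totals, 27% for sgZ3 against sgZ1. Library totals moved the median of all genes to -0.17 in sgZ3 against sgC and -0.12 in sgZ3 against sgZ1.

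Values without a call changed sign as follows, and the cause was not tested. The mean of both guides against sgC, 0.03 for AREG and 0.06 for HBEGF, was -0.04 and -0.03 with the offsets, -0.07 and -0.04 with library totals and -0.03 and -0.02 without the pair. For AREG it was -0.02 with upper-quartile factors and -0.04 to 0.07 with 1 library left out, and for HBEGF -0.00 (without sgZ3 replicate 3) to 0.10. With 1 library left out at a time, HBEGF in sgZ3 against sgC was -0.19 to 0.02 (without sgZ3 replicate 1). LRIG1 in sgZ3 against sgC was -0.07 with library totals, -0.17 without the pair and -0.12 to 0.22 with 1 library left out, below 0 without sgZ3 replicate 3 or sgC replicate 2 (-0.04). ERBB2 in sgZ1 against sgC was 0.03 without the pair and -0.36 to 0.03 (without sgZ1 replicate 2) with 1 library left out, ERBB3 in sgZ3 against sgZ1 -0.08 without the pair, and EREG in sgZ3 against sgZ1 -0.23 to 0.03 (without sgZ1 replicate 1) with 1 library left out.

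The libraries showed no clear pairing by replicate number: same-numbered libraries correlated at -0.12 to 0.25, and 4 of 9 correlated best with their own number. These correlations cannot exclude a pairing, since they use deviations from the means of groups of 3 libraries. With the replicate number as a block, 4202, 5974, 5488 and 5005 genes were called, against 3807, 5355, 4885 and 4209 without it. Under this block EGFR in sgZ3 against sgC passed (-0.61, adjusted p = 0.005), as did ERBB2 in sgZ3 against sgZ1 (-0.39, adjusted p = 0.039) and EGFR (-0.44, adjusted p = 0.014) and ERBB2 (-0.39, adjusted p = 0.016) in the mean of both guides, and TGFA in sgZ3 against sgC no longer did (-0.24, adjusted p = 0.054). LRIG1, at 15 to 63 counts, is where depth limits precision most among the 10 genes.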
